A study of Mus musculus with 5 samples.

Results

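The mRNA decay and deadenylation machinery was taken as 52 genes, found on the array by the gene symbol that the platform annotation gives each probe. Of these, 46 had a probe and 38 were measured, meaning that a probe gave a detection p-value under 0.05 on at least 2 of the 5 arrays, out of 8928 genes measured in all. The cells were a line of mouse embryonic fibroblasts (MEFs) of strain C57BL/6 that lack Dicer, the nuclease that makes small RNAs, so every group compared here is Dicer-null. They were transfected with Lipofectamine and a small interfering RNA (siRNA), and total RNA was extracted 48 hours later and read on Illumina expression arrays. The knockdown group holds 2 arrays, siTARBP2-1 and siTARBP2-2, each with its own siRNA against Tarbp2, a double-stranded RNA-binding protein. The control group holds 3 arrays, siControl-1 to siControl-3. The groups are given here by these labels, although the series' design text writes of metastatic cells and of mock transfection. No source says whether arrays stand for separate cultures, and the p-values therefore reflect a spread that may be technical.

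Decay of most mRNAs starts with shortening of the poly(A) tail by the PAN2-PAN3 and CCR4-NOT deadenylases. The body of the mRNA is then degraded from the 5′ end after decapping, or from the 3′ end by the exosome. Nonsense-mediated decay removes mRNAs with a premature or unusual stop codon, and proteins that bind AU-rich elements or that bind Argonaute (the GW182 family) bring the deadenylases to chosen mRNAs. Cells without Dicer lack most microRNAs, and these are the usual guides of the GW182 route.

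Levels are normalized log2 signals of the brightest measured probe of each gene, and a log2 change is a difference of such values. Median raw signals of the arrays were 79.0 to 81.9, with 12445 to 13051 probes above background. For siTARBP2-2 that count rests on detection p-values taken over from the other arrays, so it is no check of that array. The targeted gene checked the labels: the Tarbp2 probe ILMN_2939990 read 7.67 with siTARBP2-1 and 7.18 with siTARBP2-2 against 9.50, 9.55 and 9.36 on the control arrays, a fall to 24.2% of control (log2 change -2.05, SE 0.16; limma, adjusted p = 0.0410, n = 2 and 3). That call ended without any of the 3 control arrays (limma, adjusted p = 0.489, 0.411 and 0.289), while each siRNA alone passed the test. The dimmer Tarbp2 probe ILMN_2649955 fell to 28% of control and did not pass over both siRNAs (limma, adjusted p = 0.1025). Its log2 change was -1.41 with siTARBP2-1 and -2.26 with siTARBP2-2, against -1.80 and -2.29 for ILMN_2939990. By both probes the fall was thus smaller with siTARBP2-1. Of the fibroblast markers 8 of 10 were measured, Col1a1, Col1a2, Col3a1 and Vim among them. Thy1 was not above background, and Fn1 had no named probe. Of the markers of other cell types Ptprc, Pecam1 and Cdh5 were not above background, and Krt8 was above it on 2 arrays. The macrophage marker Cd68 and the epithelial marker Epcam had no named probe and were not checked.

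Over both TARBP2 siRNAs, 0 of the 38 decay genes passed the test at an adjusted p under 0.05, beside 0.0112% of all measured genes, which was Tarbp2 alone. At an unadjusted p under 0.05 limma gave 5 decay genes, 13.2%, beside 12.9% of all genes. With siTARBP2-1, 3 decay genes passed the test, 7.89% beside 7.65% of all genes. Tob1 and Zfp36 rose (5.26% beside 3.88% of all genes) and Smg5 fell (2.63% beside 3.77%), and 10 had an unadjusted p under 0.05 (26.3% beside 24.7%). With siTARBP2-2, limma called 0 decay genes, beside 4.3% of all genes (1.78% higher and 2.52% lower), and 6 had an unadjusted p under 0.05 (15.8% beside 22.9%). Between the siRNAs 1 decay gene differed, Tob1, which was higher with siTARBP2-1. That is 2.63% beside 7.09% of all genes (3.73% higher and 3.36% lower), and 7 had an unadjusted p under 0.05 (18.4% beside 25.4%). A share near that of all genes is not a result about the decay genes. The comparisons share the 3 control arrays.

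The median absolute log2 change over both siRNAs was 0.132 for the decay genes and 0.132 for all genes. With siTARBP2-1 it was 0.141 beside 0.169, and with siTARBP2-2 it was 0.158 beside 0.167. Between the siRNAs it was 0.209 beside 0.214. The signed median was -0.02 over both siRNAs, with 18 genes positive and 20 negative, beside 0.00 for all genes. It was -0.01 with siTARBP2-1 and 0.03 with siTARBP2-2, beside -0.01 and 0.02 for all genes. Between the siRNAs it was -0.12, lower on the siTARBP2-1 array, with 24 of the 38 genes negative, beside -0.02 for all genes, of which 4706 of 8928 were negative. For the decay genes, the median deviation of a control array from the mean of the 3 controls had an SD of 0.0417. That is not the spread of a difference between 2 single arrays. Each control array set against the other controls gave medians of -0.07 to 0.05. The 95% interval of the change over both siRNAs lay within 1 log2 unit of 0 for 37 of the 38 genes, 97.4% beside 96.3% of all genes, and the exception was Ddx6. With siTARBP2-1 this held for 36 genes, without Tob1 and Ddx6 (94.7% beside 94.9%), and with siTARBP2-2 for 35, without Cnot4, Ddx6 and Tnrc6c (92.1% beside 96.4%). Between the siRNAs it held for 35, without Tob1, Ddx6 and Tnrc6c (92.1% beside 89.7%). The median interval, which is not adjusted for the number of probes, reached 0.307 to either side over both siRNAs. The adjusted test is stricter. Larger changes, such as 0.58 for Cnot4 and 0.90 for Ddx6, did not pass it.

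**Figure D1:**
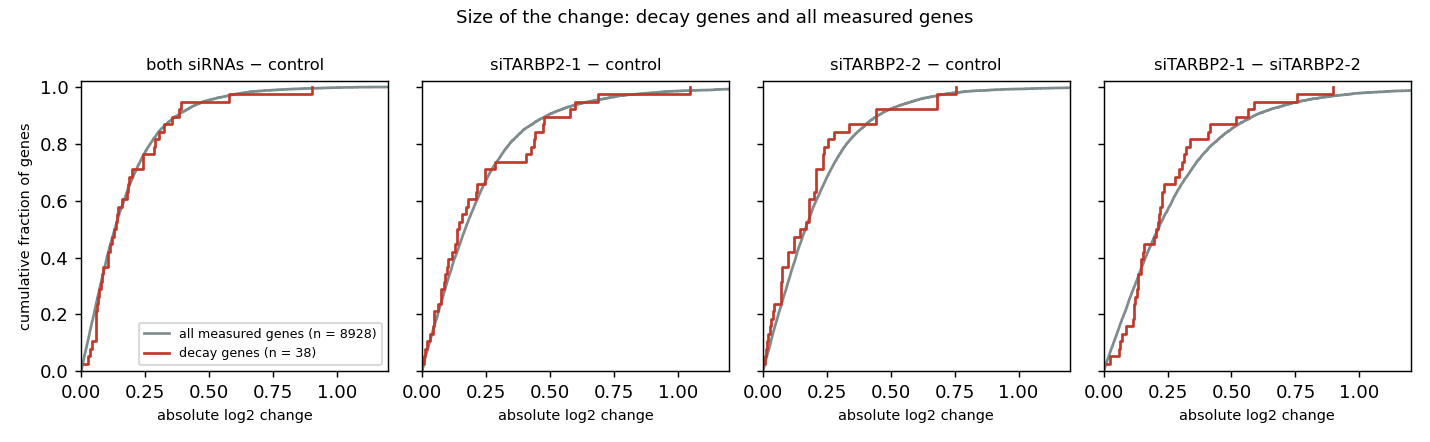
Cumulative fraction of genes (vertical axis) with an absolute log2 change up to the value on the horizontal axis, for the 38 measured decay genes (red) and all 8928 measured genes (grey), in each of the 4 comparisons; no error is drawn. The red and grey lines lie close together, with medians of 0.132 and 0.132 over both siRNAs and 0.141 and 0.169 with siTARBP2-1.

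Counted without a model, both siRNA arrays lay above all 3 control arrays for 7 decay genes (18.4%, beside 16.2% of all genes), namely Cnot4, Cnot6l, Ddx6, Upf2, Smg1, Smg6 and Zfp36. Both lay below for 3 (7.89%, beside 15.1%), namely Pan3, Exosc5 and Elavl1. The 7 higher genes come from several roles, and their share was near that of all genes. The plot of each gene by array shows that for the others an siRNA array fell inside the range of the controls or the siRNA arrays lay on opposite sides of it.

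**Figure D2:**
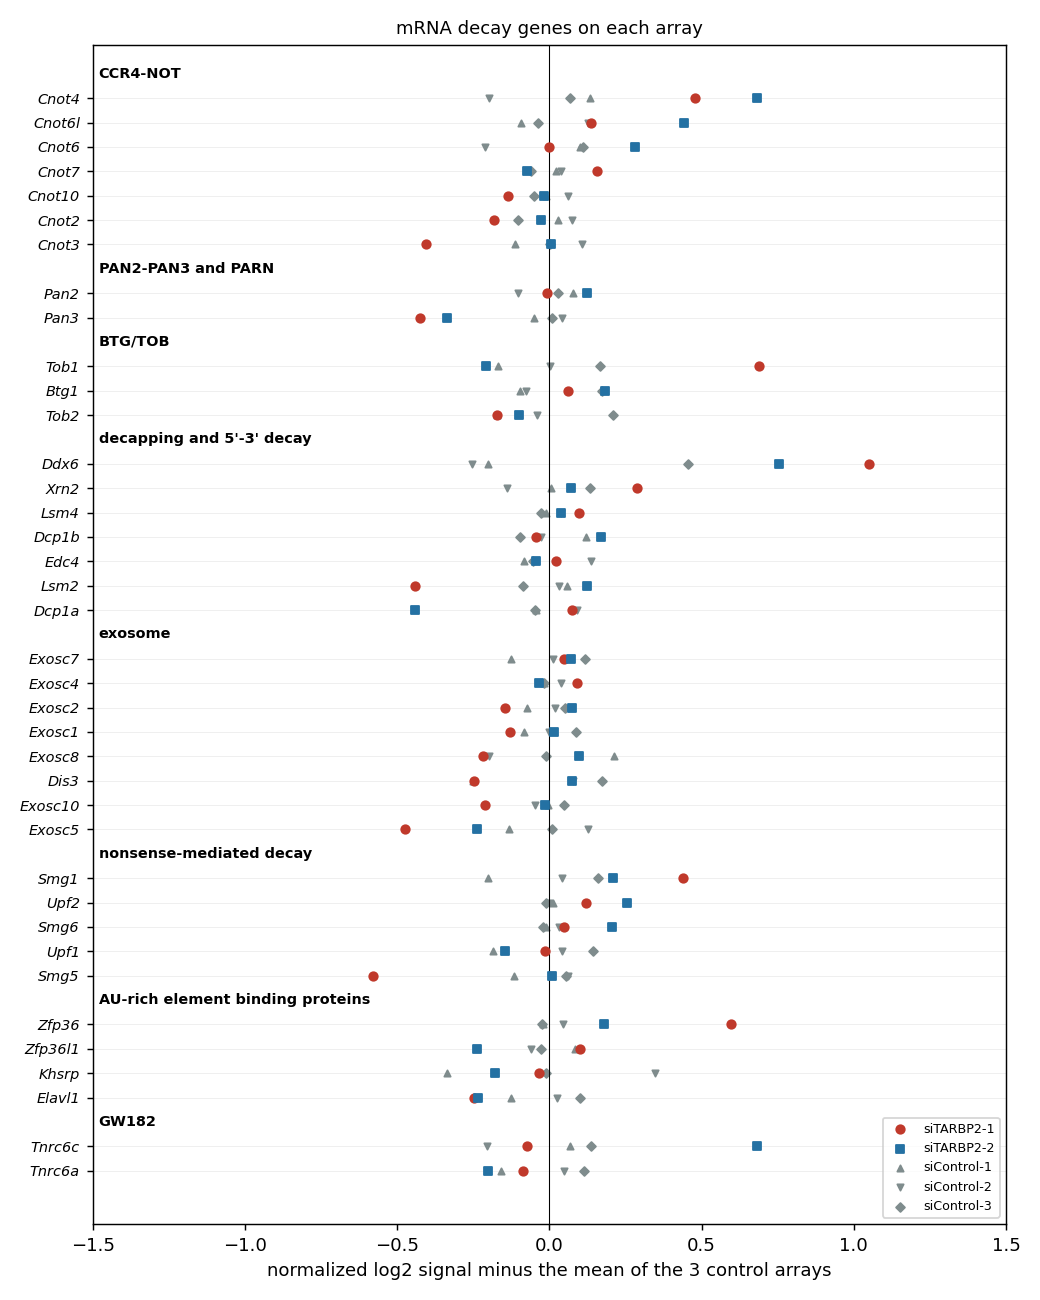
Normalized log2 signal of each of the 38 measured decay genes on each of the 5 arrays, minus the mean of the 3 control arrays (horizontal axis), grouped by role and ordered within each role by the change over both siRNAs. Red circles are siTARBP2-1, blue squares siTARBP2-2 and grey symbols the control arrays, with 1 point an array and no error bar. Ddx6 and Cnot4 have both siRNA points to the right of the controls, and Tob1, Smg5 and Zfp36 have the siTARBP2-1 point far from the rest.

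The upstream sequences of the 3 called genes are shown because Tob1 and Zfp36 rose and Smg5 fell on the same array. They are the 250 bases before the annotated start from RefSeq, build GRCm38.p6, read 5′ to 3′ along the gene, with motif matches in capitals. The Tob1 window is chr11:94211204-94211453 on the plus strand, the Smg5 window chr3:88336010-88336259 on the plus strand and the Zfp36 window chr7:28379229-28379478 on the minus strand.
Tob1: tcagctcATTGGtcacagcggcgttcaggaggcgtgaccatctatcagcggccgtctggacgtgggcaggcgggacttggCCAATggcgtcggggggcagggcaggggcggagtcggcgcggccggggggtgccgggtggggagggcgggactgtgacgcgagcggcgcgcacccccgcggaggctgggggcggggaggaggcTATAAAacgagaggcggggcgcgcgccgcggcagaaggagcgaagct
Smg5: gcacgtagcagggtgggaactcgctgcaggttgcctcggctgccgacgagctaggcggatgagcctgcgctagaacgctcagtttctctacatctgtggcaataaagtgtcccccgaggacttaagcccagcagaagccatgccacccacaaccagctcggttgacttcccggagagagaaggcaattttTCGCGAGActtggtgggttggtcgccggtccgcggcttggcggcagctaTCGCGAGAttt
Zfp36: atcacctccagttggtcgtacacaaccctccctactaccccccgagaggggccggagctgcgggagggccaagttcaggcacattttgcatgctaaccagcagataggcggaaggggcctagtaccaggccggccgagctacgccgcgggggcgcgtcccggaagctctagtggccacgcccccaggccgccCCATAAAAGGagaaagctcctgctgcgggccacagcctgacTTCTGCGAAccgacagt
On both strands 7 motifs were searched, picked after the windows had been read. The windows of 43 of the 52 decay genes were at hand, 52 windows in all. TATAAA, the TATA box, was found in Tob1 at position -47, counted from the start to the leftmost base of the match, and in 12.4% of all 32851 windows (5.77% of those of decay genes). CCAAT was found at -243 (as its reverse complement) and at -170 in Tob1 and in 33.8% of all windows (36.5%). In Smg5 the capitals mark TCGCGAGA at -60 and at -11, a motif in 0.858% of all windows (3.85%, or 2 of the 52). In Zfp36 they mark a CArG box, the serum response factor motif, at -58 (1.47% of all windows, 1.92% of those of decay genes) and TTCNNNGAA, the gamma-activated site of STAT factors, at -17 (7.02% and 7.69%). An interferon response core (GAAA, any 2 bases, GAAA) and TGACGTCA, the cyclic AMP response element, were found in none of the 3 windows, and in 2.98% and 1.55% of all windows (1.92% and 3.85% of those of decay genes). No motif overlapped another in these windows. A match is a match of letters and was not tested as a site.

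Among the CCR4-NOT genes, 7 of 9 were measured and 0 passed the test, with a median log2 change of 0.04 over both siRNAs (-0.01 with median scaling). Between the siRNAs the median was -0.21, with 6 of 7 genes lower on the siTARBP2-1 array. Cnot4 encodes an E3 ubiquitin ligase that associates with the complex. Its signal was 7.70 with siTARBP2-1 and 7.90 with siTARBP2-2, and 7.35, 7.02 and 7.29 on the control arrays. Both siRNA arrays thus lay above all controls. The log2 change was 0.58 (SE 0.14; limma, adjusted p = 0.20, n = 2 and 3), made up of 0.48 with siTARBP2-1 and 0.68 with siTARBP2-2 (limma, adjusted p = 0.0583), and it did not pass. The other measured Cnot4 probes had the same sign with each siRNA. Cnot6l, a catalytic deadenylase subunit, read 8.39 and 8.70 against 8.17, 8.39 and 8.22. Its siTARBP2-1 value lay just above the highest control, and the change was 0.29 (SE 0.14). Its paralog Cnot6 had 0.14 and was above background on 3 arrays, siTARBP2-1 not among them. The other catalytic subunit, Cnot7, had 0.04. The scaffold-binding subunits Cnot2, Cnot3 and Cnot10 had -0.10, -0.20 and -0.08. Cnot3 was at 6.74 with siTARBP2-1, below its controls at 7.03, 7.25 and 7.14, and at 7.15 with siTARBP2-2, among them. Cnot8 was not above background, and the scaffold gene Cnot1 had no named probe.

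Of the PAN2-PAN3 deadenylase, the catalytic subunit Pan2 read 9.59 and 9.72 with the siRNAs, inside or just beside the control range of 9.49 to 9.68, with a change of 0.06 (SE 0.12). Pan3, the subunit that binds poly(A)-binding protein and GW182 proteins, read 5.10 with siTARBP2-1 and 5.19 with siTARBP2-2. Its controls were at 5.48, 5.57 and 5.53, and the siRNA arrays lay below all of them. The log2 change was -0.38 (SE 0.11; limma, adjusted p = 0.23, n = 2 and 3), and it did not pass. Without background correction the value was -0.17. The deadenylase gene Parn had no named probe.

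The BTG/TOB proteins bind the CCR4-NOT deadenylase subunits and favour deadenylation, and 3 of 4 were measured. Tob1 read 9.08 with siTARBP2-1 and 8.18 with siTARBP2-2, and 8.22, 8.40 and 8.56 on the control arrays. The siTARBP2-1 array was above all others, and the siTARBP2-2 array was just under the lowest control. Tob1 rose with siTARBP2-1 by 0.69 (SE 0.15; limma, adjusted p = 0.0405) and had -0.21 with siTARBP2-2 (adjusted p = 0.451). The difference between the siRNAs was itself called, at 0.90 (SE 0.18; limma, adjusted p = 0.0343). Over both siRNAs together the change was 0.24 (SE 0.25). Tob1 has 1 measured probe. Both Tob1 calls ended without siControl-2 (limma, adjusted p = 0.112 and 0.0779) and with no filter on dim probes (0.0897 and 0.0777). Btg1 had 0.12 and Tob2 -0.14 over both siRNAs, with at least 1 siRNA array inside the range of the controls for each. Btg2 was not above background.

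Decapping and 5′-to-3′ decay had 7 of 11 genes measured, with a median of 0.06 and 0 called. Ddx6, the helicase that links deadenylation to translational repression and decapping, read 7.19 with siTARBP2-1 and 6.90 with siTARBP2-2. Its controls were at 5.94, 5.89 and 6.60, so the siRNA arrays lay above a control group that was itself widely spread. The change of 0.90 (SE 0.23; limma, adjusted p = 0.21, n = 2 and 3) was the largest among the 38 genes by size and did not pass. Without background correction the value was 0.58. Ddx6 passed with each siRNA under median scaling and without siControl-3, whose value is the highest of its controls. With siTARBP2-1 it also passed without background correction, with normexp and with the series matrix values. The same held for probes detected on all arrays and for the mean of all probes. In the other settings it did not pass. With siTARBP2-1 alone it was 1.05 (SE 0.27; limma, adjusted p = 0.0633), and with siTARBP2-2 0.75 (adjusted p = 0.16). Ddx6 had 3 measured probes. The dimmer ILMN_3114632 read 6.03 and 5.60 against 5.08, 5.32 and 4.999, and it passed the test with siTARBP2-1 (0.90, SE 0.15; limma, adjusted p = 0.0179). The probe ILMN_2758969 had a change of 0.33 over both siRNAs, with the same sign. Dcp1a, a cofactor of the decapping enzyme, read 9.18 with siTARBP2-1, inside its control range of 9.06 to 9.20, and 8.66 with siTARBP2-2, below it. Its change with siTARBP2-2 was -0.44 (SE 0.12; limma, adjusted p = 0.089), and the other measured Dcp1a probes had the same signs. Lsm2, a subunit of the Lsm ring that binds deadenylated mRNA ends, read 9.55 with siTARBP2-1 against controls of 10.05, 10.02 and 9.90, and 10.11 with siTARBP2-2. Its change with siTARBP2-1 was -0.44 (limma, adjusted p = 0.0735). The other measured Lsm2 probe, ILMN_2741726, passed the test there with -0.62 (SE 0.14; limma, adjusted p = 0.0489). Lsm4, Dcp1b, the scaffold gene Edc4 and the nuclear 5′-to-3′ exonuclease gene Xrn2 had changes over both siRNAs of -0.01 to 0.18. Edc3, Lsm1 and the cytoplasmic exonuclease gene Xrn1 were not above background, and Dcp2, the decapping enzyme itself, had no named probe.

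The exosome, the 3′-to-5′ exonuclease complex, had 8 of 10 genes measured and 0 called. Its median change was -0.06 over both siRNAs, with 6 of 8 genes negative, -0.18 with siTARBP2-1 and 0.04 with siTARBP2-2. Each control array set against the other controls gave exosome medians of -0.12 to 0.08. Between the siRNAs the median was -0.21, with 7 of 8 genes lower on the siTARBP2-1 array, beside a median of -0.02 and 4706 of 8928 genes lower over the whole array. The CCR4-NOT genes and the decay genes as a whole had medians of -0.21 and -0.12 in the same comparison. With median scaling the exosome median between the siRNAs was -0.37, beside -0.15 for all genes. Exosc5, a ring subunit, read 6.83 with siTARBP2-1 and 7.06 with siTARBP2-2, both below its controls at 7.17, 7.43 and 7.31. Its change was -0.36 (SE 0.13; limma, adjusted p = 0.345, n = 2 and 3). The catalytic subunits Exosc10 and Dis3 had -0.11 and -0.09 over both siRNAs. Exosc10 read 9.51 with siTARBP2-1, below its control range of 9.68 to 9.77, and 9.71 with siTARBP2-2, inside it. Exosc3 and Exosc9 were not above background.

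Nonsense-mediated decay genes had 5 of 7 measured, with a median of 0.13 over both siRNAs. Smg5, which brings decay enzymes to phosphorylated Upf1, read 6.01 with siTARBP2-1 and 6.59 with siTARBP2-2, and 6.47, 6.65 and 6.64 on the control arrays. The siTARBP2-1 array was below all others, and the siTARBP2-2 array lay within the controls. Smg5 fell with siTARBP2-1 (log2 change -0.58, SE 0.12; limma, adjusted p = 0.0392) and had 0.01 with siTARBP2-2 (adjusted p = 0.976). The difference between the siRNAs, -0.59 (SE 0.15; limma, adjusted p = 0.0671), did not pass. It passed with median scaling, for probes detected on all arrays and without siControl-1. The other Smg5 probe, ILMN_1232896, had -0.36 with siTARBP2-1 (limma, adjusted p = 0.186). The Smg5 call ended without siControl-2 (limma, adjusted p = 0.127) or siControl-3 (0.0712), with no filter (0.0659) and with the mean of all probes (0.0599), and without background correction it was called with a value of -0.35.

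Smg1, the kinase that phosphorylates Upf1, read 10.69 and 10.46 against 10.05, 10.29 and 10.41, with both siRNA arrays above the controls and a change of 0.32 (SE 0.15; limma, adjusted p = 0.415). Upf2, the adaptor between Upf1 and the exon junction complex, read 11.41 and 11.55 against 11.31, 11.29 and 11.28. The controls of Upf2 lay close together, and its change was 0.19 (SE 0.11). The endonuclease gene Smg6 had 0.13. The helicase gene Upf1 had -0.08 by its brightest probe, and its 3 measured probes ran from -0.15 to 0.21, so no direction was given for Upf1. Upf3a and Upf3b had no named probe.

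Of the AU-rich element binding proteins, 4 of 5 were measured, with a median of -0.09 over both siRNAs. Zfp36 (tristetraprolin), which destabilises mRNAs with AU-rich elements by recruiting CCR4-NOT, read 9.004 with siTARBP2-1 and 8.59 with siTARBP2-2. Its controls were at 8.38, 8.45 and 8.38, so both siRNA arrays lay above them, with siTARBP2-1 farther away. Zfp36 rose with siTARBP2-1 by 0.60 (SE 0.11; limma, adjusted p = 0.0249), and had 0.18 with siTARBP2-2 (adjusted p = 0.381). The difference between the siRNAs, 0.42 (SE 0.14; limma, adjusted p = 0.115), did not pass. It passed without background correction, with normexp and with the series matrix values. The Zfp36 call ended without siControl-2 (limma, adjusted p = 0.079) and with median scaling (0.0739). Its paralog Zfp36l1 had 0.10 with siTARBP2-1 and -0.24 with siTARBP2-2, and neither passed. Elavl1 (HuR), which binds AU-rich elements and stabilises mRNAs, read 11.26 and 11.28 against 11.39, 11.54 and 11.61. Both siRNA arrays were below the controls, and the change was -0.24 (SE 0.12; limma, adjusted p = 0.449). Khsrp had -0.11, with controls spread from 8.24 to 8.93. Zfp36l2 had no named probe.

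Of the GW182 genes, Tnrc6c read 7.51 with siTARBP2-1 and 8.26 with siTARBP2-2 against 7.65, 7.38 and 7.72. The siTARBP2-2 array lay above all others, and siTARBP2-1 within the controls. The change with siTARBP2-2 was 0.68 (SE 0.16; limma, adjusted p = 0.0607), the difference between the siRNAs was -0.76 (adjusted p = 0.0629), and neither passed. Tnrc6a had -0.14 over both siRNAs (SE 0.12), with siTARBP2-1 inside the controls and siTARBP2-2 just below them. Tnrc6b was not above background.

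**Figure D3:**
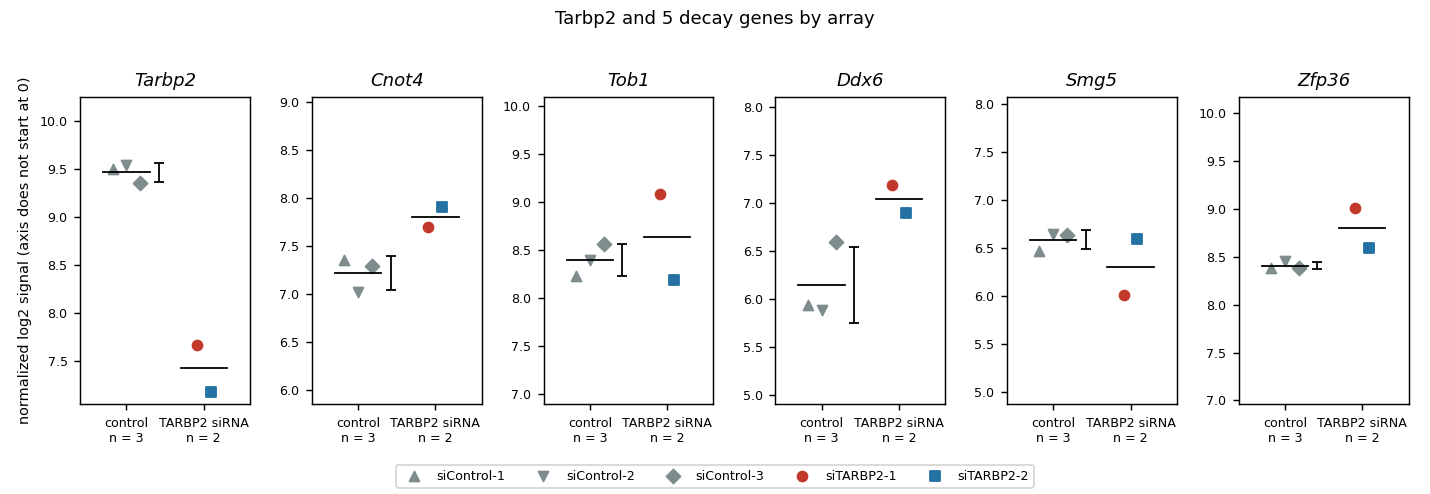
Normalized log2 signal (vertical axes, which do not start at 0) of Tarbp2, Cnot4, Tob1, Ddx6, Smg5 and Zfp36 on the 3 control arrays and the 2 TARBP2 siRNA arrays. Horizontal lines are group means and the bars are the SD of the controls (n = 3); Tob1 was 9.08 with siTARBP2-1 and 8.18 with siTARBP2-2, and Ddx6 controls ran from 5.89 to 6.60.

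For 14 decay genes more than 1 probe was measured. All measured probes of a gene had the same sign over both siRNAs in 13 of them, with siTARBP2-1 in 11 and with siTARBP2-2 in 9. The exception over both siRNAs was Upf1. Cnot4, Cnot6l, Btg1, Dcp1a, Ddx6, Smg5 and Tnrc6a kept their sign across probes in all of these comparisons. The plot of probes shows that the brightest probe of Ddx6, Cnot4 and Smg5 was also the one with the largest change with siTARBP2-1.

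**Figure D4:**
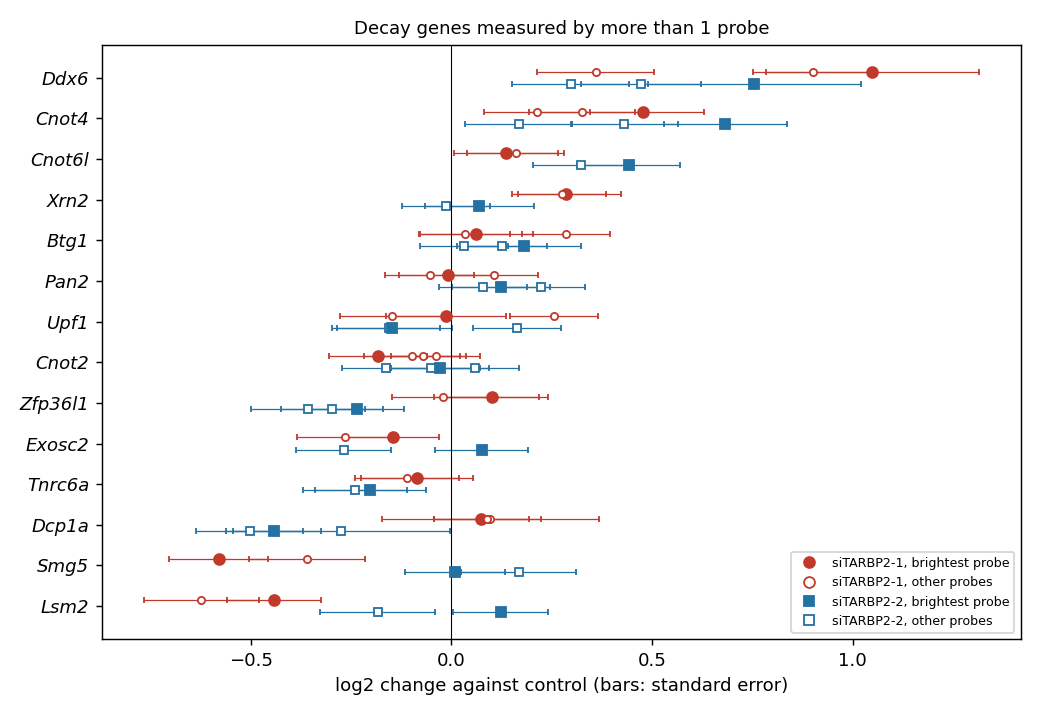
Log2 change against control (horizontal axis) for every measured probe of the 14 decay genes with more than 1, with siTARBP2-1 in red and siTARBP2-2 in blue. Filled symbols are the brightest probe of a gene, open symbols its other probes, and bars are standard errors; all 3 Ddx6 probes lie to the right of 0, with 1.05, 0.90 and 0.36 for siTARBP2-1.

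The array with siTARBP2-1, on which all 3 calls of decay genes against control were made, also stood apart in genes outside the decay list. All 8 measured of 10 interferon response genes rose there (median log2 change 1.98), with a mean log2 signal of 12.02 against 10.06 to 10.26 on the control arrays. With siTARBP2-2 their mean was 9.76, and all 8 had a negative change (median -0.49). Of these 1 passed the test there, Ifit3 (-0.59; limma, adjusted p = 0.0451). Of the 8 measured fibroblast markers 3 fell with siTARBP2-1, namely Col1a1 (-0.65), Col3a1 (-0.59) and Pdgfra (-0.79), and Col1a1 also fell with siTARBP2-2 (-0.55). The mean log2 signal of these markers was 9.03 and 9.26 on the siRNA arrays and 9.37 to 9.40 on the controls. In such bulk RNA, fewer cells of a type and less RNA per cell cannot be told apart. The part of these signals in the Tob1, Smg5 and Zfp36 values was not tested.

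The authors' deposited table, made from the same arrays, holds 51 accessions for 48 of the 52 decay genes. It marks 10 of these accessions as higher, 19.6% beside 8.67% of its 18744 accessions. These shares have unlike bases. Of genes with a probe, 38 of 46 decay genes were measured here, beside 8928 of 16593 in all. Over both siRNAs, limma gave 13.2% of decay genes beside 12.9% of all genes at an unadjusted p under 0.05. In the authors' deposited table the marked genes are Btg1, Cnot4, Cnot6l, Ddx6 (1 of its 2 accessions), Smg1, Tnrc6c, Tob1, Upf2, Upf3a and Zfp36. The authors' deposited table gives the decay genes values from -0.24 (Elavl1) to 0.30 (Smg1), and Tarbp2 -1.19. No source states how the marks were made, and the direction of the values in the authors' deposited table was set from the arrays. Upf3a, at 0.13 in the authors' deposited table, has no named probe in the annotation used here.

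Beyond the 52 genes, a list of 77 other decay factors had 62 measured, among them poly(A)-binding, decapping, exosome cofactor and exon junction genes. Their median change was -0.01 over both siRNAs, -0.03 with siTARBP2-1 and 0.02 with siTARBP2-2. With each siRNA 1 gene of the 62 rose and 0 fell, beside 7.65% of all genes called with siTARBP2-1 and 4.3% with siTARBP2-2. In both cases it was Nudt16, which encodes a decapping enzyme. Nudt16 read 8.81 with siTARBP2-1 and 8.48 with siTARBP2-2 against 7.94, 7.81 and 7.97, with both siRNA arrays clear of the controls. It rose by 0.90 with siTARBP2-1 (SE 0.12; limma, adjusted p = 0.00816) and by 0.57 with siTARBP2-2 (adjusted p = 0.04999, just under the threshold). Over both siRNAs it had 0.73 (SE 0.13; limma, adjusted p = 0.135), which did not pass. The call with siTARBP2-2 ended without any of the 3 control arrays (limma, adjusted p = 0.0505, 0.157 and 0.0647) and with no filter (0.0764).

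Transcripts that textbooks give as substrates of these routes were also read. Of 39 listed, 31 were measured, 10 known as targets of nonsense-mediated decay and 21 that carry AU-rich elements. Many of them are also stress or inflammatory genes that other signals regulate, and the array gives levels and not decay rates. Over both siRNAs 0 of the 31 passed the test (limma), beside 0.0112% of all genes, and 15 had an unadjusted p under 0.05, beside 12.9%. With siTARBP2-1 5 of the 31 passed, beside 7.65% of all genes, and with siTARBP2-2 7, beside 4.3%. The median log2 change over both siRNAs was 0.22, with 22 genes positive. Both siRNA arrays lay above all controls for 17 of the 31 and below for 2, beside 16.2% and 15.1% of all genes. The list was chosen with earlier results of these data known, so these shares are a description and not a test.

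Among the nonsense-mediated decay targets the median change was 0.26. Atf3, a stress-induced transcription factor, read 9.58 with siTARBP2-1 and 8.90 with siTARBP2-2 against 8.54, 8.56 and 8.50, and rose with siTARBP2-1 by 1.05 (limma, adjusted p = 0.00386). Gadd45a, a growth arrest gene, read 8.75 and 9.50 against 8.24, 8.48 and 8.44, and rose with siTARBP2-2 by 1.12 (adjusted p = 0.0149). The stress genes Ddit3 and Chac1 also rose with siTARBP2-2, by 0.86 and 0.84. For each of these 4 genes both siRNA arrays lay above the controls. Between the siRNAs Atf3 was higher with siTARBP2-1 (0.68; limma, adjusted p = 0.031) and Gadd45a higher with siTARBP2-2 (-0.75, adjusted p = 0.0442). The splicing factor genes Srsf2 and Srsf3, whose poison exons feed this pathway, had -0.06 and -0.29 over both siRNAs. Atf4, Tbl2, Map3k14 and Gadd45b had -0.05, 0.08, 0.10 and 0.41, and none of them passed in any comparison. Gas5, Snhg1, Snhg5 and Snhg12 had no named probe.

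Among the mRNAs with AU-rich elements the median was 0.22. With siTARBP2-1 the chemokine gene Cxcl1 (0.75), the early response gene Ier3 (0.55) and the cyclin gene Ccnd1 (0.53) rose. Fos fell there (-0.58, limma, adjusted p = 0.0266), and with siTARBP2-2 it had -0.44, which did not pass. With siTARBP2-2 Fosl1 (0.73), Ier3 (0.65) and Egr1 (0.69) rose and the phosphatase gene Dusp1 fell (-0.68; limma, adjusted p = 0.0365). Egr1 read 11.55 with siTARBP2-1 and 12.50 with siTARBP2-2 against 11.87, 11.75 and 11.79, so the siRNA arrays lay on opposite sides of the controls. The siRNAs differed in Egr1 (-0.95; limma, adjusted p = 0.0146) and in Dusp1 (0.78, adjusted p = 0.027). Of the 16 calls of substrate genes 13 ended without siControl-2, among them Ier3 with siTARBP2-1 (limma, adjusted p = 0.131).

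**Figure D5:**
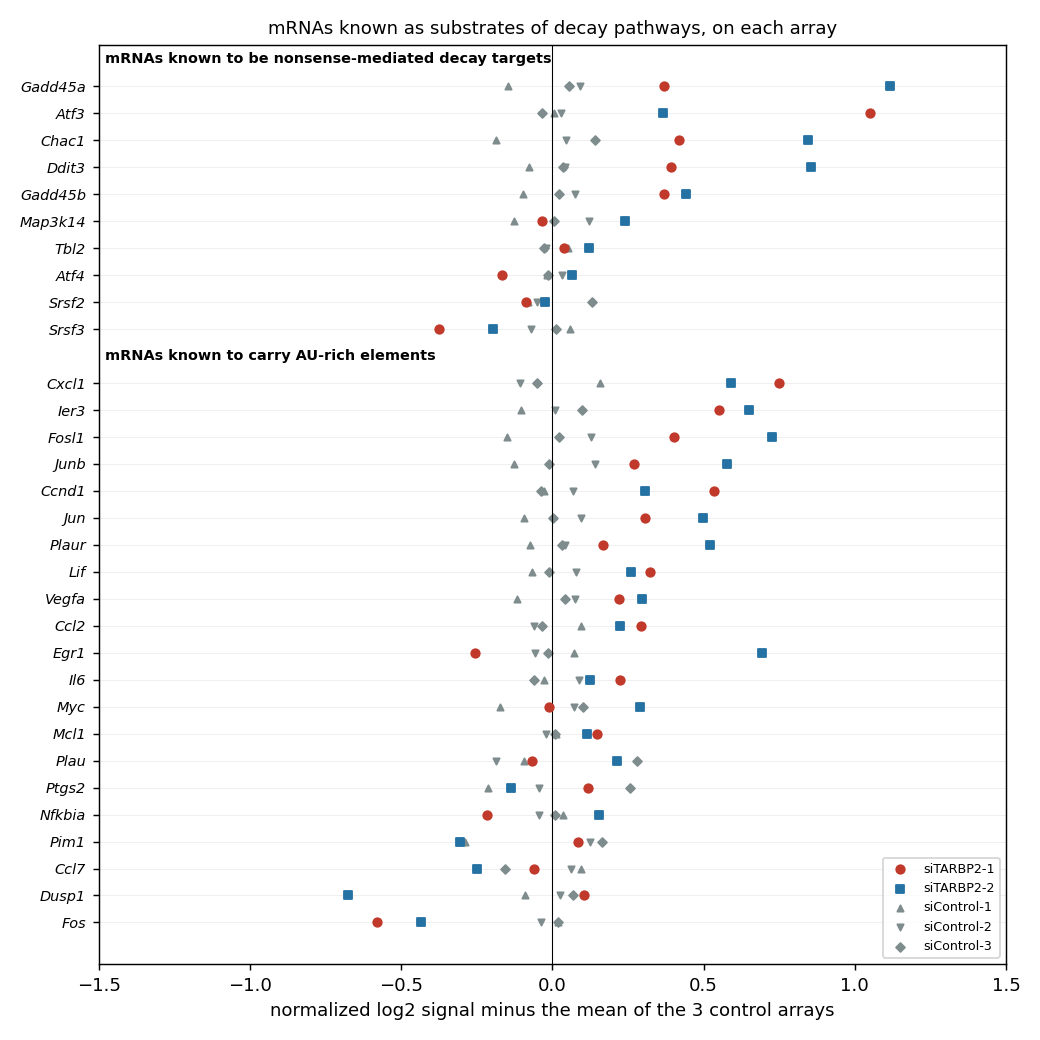
Normalized log2 signal of the 31 measured substrate mRNAs on each of the 5 arrays, minus the mean of the 3 control arrays (horizontal axis), ordered within each group by the change over both siRNAs. Red circles are siTARBP2-1, blue squares siTARBP2-2 and grey symbols the controls, with no error bar. Both siRNA points lie above all controls for 17 genes, and Fos and Srsf3 lie below.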

How the data were processed

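Per the labels' protocols, total RNA was labelled with biotin and hybridised to 1-colour Illumina BeadChips. The deposited table gives a linear intensity and a detection p-value for 25697 probes on each array. The submitters' processing notes name lumi without a version, and the scanner settings and the genome build are not stated. The authors' series matrix holds normalized intensities on a linear scale, used as an alternative. The authors' deposited table of comparisons gives a fold change on a log scale, read here as log2 since its base is not stated, and a score of 1 or 0 for each RefSeq accession.

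The intensities went through limma's neqc (version 3.58.1 in R 4.3.3; offset 16), which corrects background, normalizes quantiles and takes log2. For siTARBP2-2 the deposited detection p-values did not follow the signals (Spearman 0.000598, against -0.961 to -0.967 elsewhere). The mean detection p-value of the remaining 4 arrays at equal signal rank took their place. The 13124 probes whose detection p fell under 0.05 on 2 or more arrays were kept, and 2416 genes with several kept probes were represented by the brightest. The platform annotation gave 23978 probes 1 gene symbol, 0 several and 1719 none.

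The two-sided test was limma's (lmFit, eBayes), p-values were adjusted by Benjamini-Hochberg across every kept probe, and 0.05 was the threshold. In a further fit each siRNA had a coefficient of its own. There the spread is that of the 3 control arrays, and a lone siRNA array is taken to vary as they do. The number of arrays limits the precision. The decay genes, the other decay factors and the substrate lists were chosen with earlier results of these data known. Genes were named if called in a comparison or among the 2 largest changes of their role over both siRNAs, and the other measured genes were named with their values by role. Background correction, normalization, the filter, the probe rule, the source of the values and each array were varied in turn. No label says that a replicate number marks a shared culture, so the numbers were not taken as pairs. Pairing by number was run as an alternative. The siTARBP2-1 minus siTARBP2-2 and siControl-1 minus siControl-2 differences had r = -0.048 across 8928 genes. This cannot exclude pairing, because the first difference also holds that between the siRNAs.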

Additional observations from a re-analysis of the deposited data

Results flagged for a closer look

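Tob1 differed between the siRNAs by a test of the difference itself. The log2 signal was higher with siTARBP2-1 than with siTARBP2-2 by 0.90 (SE 0.18; limma, adjusted p = 0.0343), with the siTARBP2-1 array above and the siTARBP2-2 array below all 3 controls. Among 38 decay genes tested this was the 1 such call, 2.63% beside 7.09% of all genes. The call rests on 1 array for each siRNA and 1 probe. Over the alternatives the adjusted p of this difference ran from 0.00338 to 0.0779.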

How the results depend on the processing

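Counts of called decay genes were small and moved with the settings, and the cause was not tested. With no background correction, siTARBP2-1 gave 5 decay genes higher and 3 lower (1220 genes in all), siTARBP2-2 gave 3 and 1 (954) and the difference between siRNAs 3 and 2 (1261). With normexp and an offset of 50 the counts of decay genes were the same, with 1224, 953 and 1272 genes in all, and with the series matrix values likewise, with 1221, 957 and 1248. The decay genes added in these 3 settings were Cnot4, Ddx6, Exosc5, Lsm2 and Smg1 with siTARBP2-1, with siTARBP2-2 Cnot4, Cnot6l, Dcp1a and Tnrc6c, and between the siRNAs Dcp1a, Lsm2, Tnrc6c and Zfp36. Median scaling called 11 genes over both siRNAs, gave a median of the decay genes of -0.07 there, -0.14 with siTARBP2-1 and -0.28 between the siRNAs, and called 3 decay genes lower with siTARBP2-1, 3 higher with siTARBP2-2 and 3 lower between them (Lsm2, Smg5 and Tnrc6c). Of all genes, median scaling called 9.17% with siTARBP2-1, 5.19% with siTARBP2-2 and 10% between the siRNAs. It moved the median of all genes to -0.12 with siTARBP2-1 and -0.15 between the siRNAs. The share of calls that were higher moved to 30.3% from 50.7% and to 29.7% from 52.6%. With no filter, 0 genes were called over both siRNAs, 435 with siTARBP2-1 (decay genes 1 higher and 0 lower), 83 with siTARBP2-2 and 381 between them (0 decay genes higher, median -0.05). For probes detected on all arrays 2 genes were called over both siRNAs. There, siTARBP2-1 gave 3 decay genes higher (Ddx6, Tob1 and Zfp36) and 2 lower (Pan3 and Smg5), beside 10.6% of all genes. In that setting siTARBP2-2 gave 2 higher (Cnot4 and Tnrc6c), beside 7.24% of all genes. The difference between the siRNAs gave 1 higher (Tob1) and 3 lower (Lsm2, Smg5 and Tnrc6c), beside 10.7% of all genes. The mean of all probes gave 0 genes over both siRNAs. With siTARBP2-1 it called Ddx6, Tob1 and Zfp36 higher and Lsm2 lower, beside 7.53% of all genes. The replicate block gave 0 decay genes and 0 genes over both siRNAs, with a median of 0.00 for the decay genes, so the Tarbp2 call ended (log2 change -2.10; limma, adjusted p = 0.16) and no other call of both siRNAs existed to change. Neither siRNA alone could be fitted with the block.

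With each array left out, decay genes called over both siRNAs ran from 0 to 2 higher and 0 to 1 lower, with 0 to 683 genes in all and a median of -0.01 to 0.03. For siTARBP2-1 they ran from 0 to 3 higher and 0 to 2 lower, with 255 to 800 genes in all and a median of -0.02 to 0.00. For siTARBP2-2 they ran from 0 to 1 higher and 0 to 0 lower, with 57 to 503 genes and a median of -0.01 to 0.05. For the difference they ran from 0 to 1 higher and 0 to 1 lower, with 268 to 934 genes. All 4 calls of decay genes ended without siControl-2. Over both siRNAs, Tob1 turned to -0.21 without siTARBP2-1 and was 0.69 without siTARBP2-2, and Smg5 was 0.01 and -0.58. Pan2 was 0.12 without siTARBP2-1 and -0.01 without siTARBP2-2, Dcp1a -0.44 and 0.07, and Tnrc6c 0.68 and -0.07. In these fits the other siRNA stands alone, so its values against control stay as they were by construction. Counting under the alternatives the values over both siRNAs of the named genes, and the values of each siRNA or of their difference only for genes called there, 461 kept their direction and side of the threshold, 52 lost a call, 3 gained a call and 5 turned. All gained calls arose without siTARBP2-2 and repeat the siTARBP2-1 calls of Smg5, Tob1 and Zfp36. Many of the 461 were values not called in the main setting, which had no call to lose. Of the medians of the roles over both siRNAs under the alternatives, 92 moved by less than the SD between control arrays and 20 by more.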
